A study of Mus musculus with 4 samples.

Results

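Cytosolic ribosomal protein genes encode the protein part of the ribosome, and their transcripts were followed across the cells of mouse bronchoalveolar lavage. Members were found by name: every gene of the UMI matrix whose symbol is Rps or Rpl and a digit, plus Rpsa, Rplp0, Rplp1 and Rplp2, without the Rps6k kinases and names ending in l1. The rule found 95 of 13838 genes. Of these, 77 are core members, with 31 of the small (40S) subunit, 43 of the large (60S) subunit and 3 of the acidic stalk. The other 18 were set apart and stayed out of every sum: Rps27rt, Rps27l, Rpl36al, Rpl3l, Rpl39l, Rpl6l, 11 names ending in -ps and a number, and Rps19bp1, which is no ribosomal protein.

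The cells came from C57BL/6 mice in 4 groups, each group being 1 library from the pooled lavage of 7 mice. Control mice breathed filtered air and received PBS in the nose. HDM mice breathed filtered air and received 10 µg house dust mite extract, an allergen, with sensitization on days 22 and 29 and challenge on days 36, 37 and 38. APM mice breathed aerosolized Afghanistan particulate matter, a mineral dust, at 5 mg/m3 for 6 hours a day over 12 days and then received PBS. HDM+APM mice received the dust and then the mite extract, and every group was lavaged on day 39. Transcripts were counted with the 10x Genomics 3′ v2 kit as unique molecular identifiers (UMIs), 1 per captured molecule, and levels are given as CPM, the counts of a gene scaled to a common total of UMIs per class, not divided by transcript length. The libraries held 3918, 994, 3890 and 1123 cells (control, HDM, APM, HDM+APM) at a median of 3417, 1380, 2637 and 4780 UMIs per cell. With 1 pooled library per group there was no replicate check, no test and no p-value. Every interval below is a 95% interval that covers counting error only. Of the cell barcodes, 42 occurred in more than 1 library.

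A ribosome joins a small subunit, which reads the messenger RNA, to a large subunit, which forms the peptide bond. Each subunit carries one copy of nearly all of its proteins, so cells keep the output of these genes in proportion. Most of their messenger RNAs open with a run of pyrimidines (the 5′ terminal oligopyrimidine, or TOP, sequence) through which the kinase mTOR and the binding protein Larp1 set how much of the pool is translated. Ribosomal protein transcripts are among the most abundant in any cell and are known to take an especially large share of the RNA in small resting lymphocytes.

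Of the 77 core members, 57 had an entry in the RefSeq promoter table (GRCm38.p6). A run of C followed by 4 or more pyrimidines opened exactly at the annotated start site in 13 of them, or 22.8%, against 3.04% of the 10276 matched genes of the matrix. Allowing the run to open within 10 bases of that site, a window chosen after the data were seen, it was found in 34, or 59.6%, against 37.3%. These 4 windows show start sites of members that the values below turn on; the capitals mark the run at the annotated start, and a window without capitals has none at that base.
Rps6 (chr4:86857351-86857375, minus strand): agtcgggcCTCTTTTTCgtgacgcc
Rpl35 (chr2:39005115-39005139, minus strand): gccctttcCTCTTTCTCTCgaacca
Rps27 (chr3:90213632-90213656, minus strand): ctttcgctCCTTTCCggcggtgacg
Rpl41 (chr10:128549152-128549176, minus strand): gccggctcggaagtgacgacaccga

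Rps27 (chr3:90212522-90213651, mm10) and its paralogue Rps27l (chr9:66946086-66949516) encode closely similar 40S proteins from messenger RNAs that differ at many bases. Their coding sequences, without the stop codon and from the GENCODE vM21 transcripts, are both 252 bases long and differ at 60 of them, shown in capitals, which leaves 76.2% identity.
Rps27: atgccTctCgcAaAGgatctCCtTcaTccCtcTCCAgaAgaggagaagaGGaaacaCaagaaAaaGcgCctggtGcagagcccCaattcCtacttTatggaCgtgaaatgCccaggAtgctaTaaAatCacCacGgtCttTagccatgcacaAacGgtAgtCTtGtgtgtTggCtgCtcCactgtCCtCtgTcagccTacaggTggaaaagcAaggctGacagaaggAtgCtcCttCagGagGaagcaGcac
Rps27l: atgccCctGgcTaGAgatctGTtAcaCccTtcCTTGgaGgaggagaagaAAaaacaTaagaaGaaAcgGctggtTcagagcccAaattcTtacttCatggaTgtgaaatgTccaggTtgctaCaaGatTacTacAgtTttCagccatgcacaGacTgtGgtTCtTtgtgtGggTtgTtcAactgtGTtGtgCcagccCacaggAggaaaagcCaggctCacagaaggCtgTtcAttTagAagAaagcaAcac
The 60 differences let reads of the pair be told apart. Rps27rt (chr9:114982366-114982739), named as a retrogene of Rps27, has the same 252 coding bases as Rps27, letter for letter. Its transcript matched that of Rps27 without a mismatch over 341 of the 345 bases of the Rps27 messenger RNA. The 11 -ps copies were 98.4 to 100% identical to their parent messages, so the UMIs given to them and to their parents are uncertain.

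The summed level came first. The 77 core members held 19.5% of all UMIs of the matrix. By deposited cluster, the sum was highest in the lymphocytes, at 46.7% of UMIs in B cells 2, 42.3% in B cells 1 and 39.2% in T cells. The cells named classical monocyte followed at 30.8% and the dendritic cells at 24.4%. The 10 macrophage clusters lay together, from 14.2% in Macrophage 2 to 18.9% in Macrophage 10. Granulocyte-like cells, with 10.5%, and epithelial-labelled cells, with 6.42%, were lowest. The lowest lymphocyte cluster stood 2.07-fold (2.05 to 2.10) over the highest macrophage cluster. The clusters were built on the same cells' expression, so these levels are a description.

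**Figure D1:**
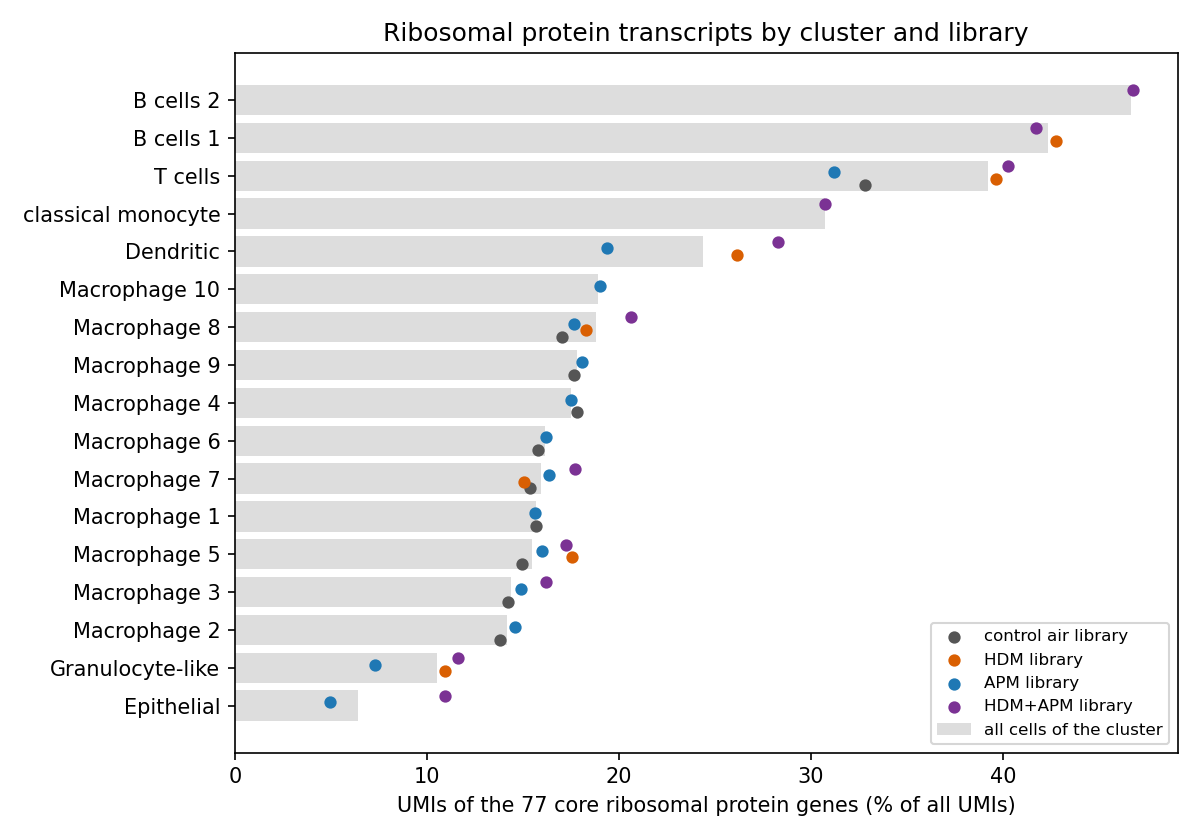
The x axis gives the UMIs of the 77 core ribosomal protein genes as a percentage of all UMIs, and each row is a deposited cluster. Grey bars are all cells of the cluster, and points are single libraries with at least 10 cells of it. The lymphocyte clusters stand at 39.2 to 46.7% and the macrophage clusters at 14.2 to 18.9%.

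Neighbours in that order were often close. Macrophage 10 (18.7 to 19.1%, 50 cells) overlapped Macrophage 8 (18.8 to 18.9%, 573 cells) within counting error. The spread over cells was wide inside a cluster: the middle 80% of Macrophage 8 cells ran from 9.27 to 28.3%, and those of T cells from 26.5 to 50.5%. By the median over cells, Macrophage 8 moved from 18.8 to 15.0%. The epithelial-labelled cells had 416537 CPM of the 7 red blood cell markers beside 195003 CPM of the 12 epithelial ones. Without haemoglobin and mitochondrial UMIs their ribosomal share was 11.3%, above the 10.7% of the granulocyte-like cells. Granulocyte-like cells were shallow, at a median of 692 UMIs, and carried 40561 CPM of the 12 neutrophil markers.

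The labels of the T cells and of both B cell clusters held against their defining markers. T cells had 3060 CPM of the T cell list (Cd3d 709 CPM), and B cells 1 and B cells 2 had 5017 and 5061 CPM of the B cell list. In the cells named classical monocyte the 11 genes of that list summed to 25751 CPM, against 30955 CPM in Macrophage 8, and 3 of the 11 were highest in the cells so named (Ifitm6, F13a1 and Vcan). Most of that sum was Lyz2 (13931 CPM) and Chil3 (11250 CPM), which the macrophages also express, whereas Ly6c2 was at 10.4 CPM and Ccr2 at 5.49 CPM. In the same cells Prg4 stood at 1762 CPM and Gata6 at 136 CPM, genes known from macrophages of the body cavities. They are called by their deposited name here without taking it as their type. All 308 of them, and 404 of the 413 B cells 2, came from the HDM+APM library, so cluster and library cannot be told apart for these cells.

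T cells were also above Macrophage 8 inside each library. In the HDM library T cells held 39.7% ribosomal protein UMIs and Macrophage 8 held 18.3%. In the HDM+APM library the values were 40.3 and 20.6%, in the APM library 31.2 and 17.6%, and in the control library, with 13 T cells, 32.8 and 17.03%. The order among macrophages was not the same inside libraries: Macrophage 9 stood at 17.7% in control and 18.1% in APM, above Macrophage 8 in both, although it lies below it over all cells. Over whole libraries the sum was 14.9% in control, 29.3% in HDM, 16.2% in APM and 36.6% in HDM+APM, where the libraries held 13, 493, 52 and 136 T cells. HDM+APM also held 404 B cells 2, the cluster with the highest share, and 308 cells named classical monocyte. HDM held 119 B cells 1 and 9 B cells 2. Whole libraries thus differ in their mix of clusters, and the part of that mix in these sums was not tested. Between whole libraries, HDM stood 1.97-fold (1.96 to 1.98) over control with 71 of 77 core members higher by at least 1.5-fold, where 16.9% of the 8477 genes with at least 100 UMIs were.

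Both subunits took part. In B cells 2 the 40S members made up 21.5% of UMIs and the 60S members 23.2%, and in Macrophage 1 these were 6.77 and 7.88%. The stalk made up 2.05% in B cells 2 and 1.00% in Macrophage 1. Of the 77 core members, 54 were highest in B cells 2, 13 in B cells 1, 8 in T cells and 2 in the cells named classical monocyte. The last pair were Rpl10, which helps the large subunit mature and forms part of the tRNA path, and Rps29, a small zinc-binding 40S protein. Lowest values fell in the epithelial-labelled cells for 68 members and in granulocyte-like cells for 9. The same counts over all genes are not given here, so they cannot be read as particular to the members. In the epithelial-labelled cells red blood cell markers took 416537 CPM, which leaves less of the total for every other gene.

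The most counted members were small. Rpl41, the shortest protein of the ribosome, gave 316031 UMIs, from 3885 CPM in epithelial-labelled cells to 14598 CPM in B cells 2. Rpl37a gave 250480, Rps29 226107 and Rps28 187568 UMIs. At the other end Rpl5, which carries 5S RNA into the large subunit, gave 24266 UMIs and was detected in 78.4% of cells. Rps6, the 40S protein phosphorylated downstream of mTOR, ranged from 861 CPM in epithelial-labelled cells to 5965 CPM in B cells 2. Rpsa, known also as a laminin receptor, ranged from 529.8 to 3998 CPM between the same clusters. Rps27a, made as a fusion with ubiquitin, ranged from 931 to 5967 CPM.

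Members did not all move in proportion. For each member the share in the core sum was compared with the median cluster on a log2 scale, so that a value of 0 means the typical share. Rps27, a zinc-finger protein of the 40S subunit, departed most (SD over 17 clusters 0.50). Its share stood 1.29 above the median cluster in granulocyte-like cells, 1.13 above in B cells 1 and 0.93 above in T cells, and 0.28 below (-0.28) in Macrophage 7. In CPM this ran from 1819 in epithelial-labelled cells and 3041 in Macrophage 7 to 21467 in B cells 1.

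The small stalk proteins went the other way. Rplp1 and Rplp2 form the flexible arm that recruits elongation factors, and Rplp0 anchors them. The share of Rplp1 (SD 0.40) was -0.80 relative to the median cluster in dendritic cells and -0.74 in B cells 1, against 0.47 in Macrophage 1. Rplp2 (SD 0.37) was -0.73 in B cells 2 and 0.30 in Macrophage 1. Their anchor Rplp0 was highest in B cells 2, at 8133 CPM, against 1317 CPM in Macrophage 2 and 980.0 CPM in the epithelial-labelled cells.

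The 7 members with the widest spread were completed by 3 of the 60S subunit and 1 of the 40S subunit. Rpl3, which reaches towards the peptidyl transferase centre, was -1.06 in granulocyte-like cells and 0.63 in B cells 2 (SD 0.35). The granulocyte-like value rested on 47 UMIs and was not the same inside libraries. In these cells Rpl3 made up 0.155% of the core sum in HDM (15 UMIs) and 0.590% (0.378 to 0.877) in HDM+APM. Macrophages 1 to 7, 9 and 10 of HDM+APM had 0.570%. Rpl41 was -0.75 in B cells 1, -0.68 in B cells 2 and -0.66 in T cells (SD 0.35), although its CPM was highest in B cells 2. Rpl10 was -0.72 in T cells and 0.35 in the cells named classical monocyte (SD 0.33). Rps4x, the X-linked 40S member, was -1.33 in granulocyte-like cells and between -0.25 and 0.24 in the other 16 clusters (SD 0.34).

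**Figure D2:**
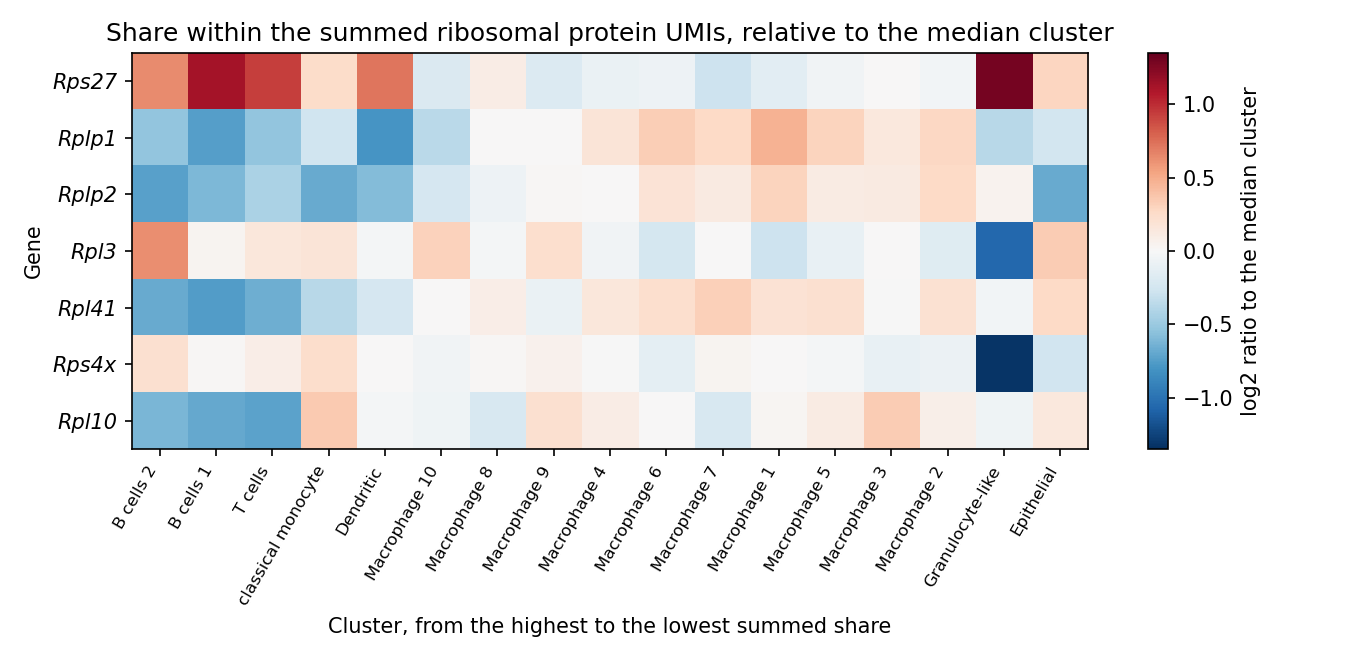
Rows are the 7 core members with the largest SD and columns the 17 clusters from the highest to the lowest summed share; colour is the log2 ratio of a member's share in the core sum to that of the median cluster. Rps27 is high and Rplp1, Rplp2, Rpl41 and Rpl10 low in the 3 lymphocyte clusters, and Rps4x and Rpl3 are lowest in granulocyte-like cells, at -1.33 and -1.06. The Rpl3 value rests on 47 UMIs, and within HDM+APM its share in granulocyte-like cells was not below that of the macrophages.

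Because lymphocytes and macrophages came largely from different libraries, these shares were also read within a library. Rps27 made up 4.54% of the core sum in T cells and 2.42% in Macrophage 8 of the HDM library. The same 2 values were 4.20 and 2.53% in HDM+APM and 4.62 and 2.56% in APM. Rpl41 made up 3.37% in T cells and 6.31% in Macrophage 8 of the HDM library, 2.81 and 5.14% in HDM+APM, and 2.50 and 4.84% in APM. For both members the lymphocyte and macrophage values did not overlap in any of the 3 libraries that hold at least 50 T cells. Rpl10 did not part as clearly. In the HDM library it made up 0.866% (0.801 to 0.935) in B cells 1 and 0.975% (0.910 to 1.04) in Macrophage 8, so these intervals overlapped. T cells of that library had 0.817%, and Macrophage 8 of control had 1.41%.

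The paralogues with a sequence of their own had a cell type pattern too. UMIs of Rps27l came to 25.4 to 44.4% of those of Rps27 in Macrophages 1 to 8 and 10, to 15.5% in Macrophage 9 and to 30.9% in dendritic cells. In T cells, B cells 1 and B cells 2 they came to 2.10, 1.51 and 2.16%. Within T cells the libraries gave 2.84% (control), 1.98% (HDM), 3.00% (APM) and 2.203% (HDM+APM), and within Macrophage 8 they gave 20.8, 29.6, 21.3 and 25.5%. No library of T cells came near any library of Macrophage 8. In CPM, Rps27l was highest in dendritic cells, at 2885, and stood at 364 in T cells and 1189 in Macrophage 8.

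Rpl3l, the paralogue of Rpl3 known from heart and skeletal muscle, gave 1319 UMIs. It stood between 31.4 and 70.6 CPM in the 10 macrophage clusters and at 3.78 CPM (1 UMI) in B cells 1, 0.86 CPM in B cells 2, 3.52 CPM in T cells and 3.05 CPM in the cells named classical monocyte. Granulocyte-like cells, with 39.7 CPM on 6 UMIs, lay inside the macrophage range. Dendritic cells were at 17.4 CPM (5 UMIs) and epithelial-labelled cells at 13.2 CPM (3 UMIs). The Rpl3l gene (chr17:24727820-24736143, mm10) lies downstream of Rps2 (chr17:24718116-24721929) on the same strand. Rpl39l, the germ cell paralogue of Rpl39, was at 7.86 to 24.8 CPM in Macrophages 1 to 7 and 9 and at 1.39 CPM (2 UMIs) in Macrophage 8, and no UMI was seen in either B cell cluster. Dendritic cells had 17.4 CPM of Rpl39l, on 5 UMIs. Rpl36al, a paralogue of Rpl36a, varied less: it reached 49.6 to 62.7% of the UMIs of its parent in the macrophage clusters, 38.0% in T cells and 28.4% in B cells 2. Rpl6l gave 194 UMIs and Rps19bp1 1327. The Rpl6l transcript is 98.7% identical to that of Rpl6, so its UMIs are as uncertain as those of the -ps copies. Over all cells they came to 0.313, 0.735, 0.134 and 0.432% of those of Rpl6 (control, HDM, APM, HDM+APM).

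The near-identical copies differed by library within clusters. In Macrophage 8, UMIs of Rps27rt came to 6.98% (5.02 to 9.49) of those of Rps27 in control, 23.3% (21.0 to 25.8) in HDM, 12.1% (10.3 to 14.2) in APM and 18.04% (16.3 to 19.9) in HDM+APM. In T cells the values were 8.87, 22.4, 12.7 and 14.9%. Macrophage 5 gave 8.23, 26.1, 10.8 and 17.9%. The order was control, APM, HDM+APM, HDM in each of these 3 clusters, but in granulocyte-like cells APM (20.4%) and HDM+APM (20.3%) were level. The HDM library gave the highest value in 9 of 9 clusters with at least 100 Rps27 UMIs in HDM and another library, and APM exceeded control in 11 of 11.

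The 11 -ps names together repeated the HDM excess but not the excess of APM. Over all cells their UMIs came to 0.720% of those of their parents in control, 2.37% in HDM, 0.636% in APM and 0.905% in HDM+APM. HDM was highest in 12 of 12 clusters, whereas APM exceeded control in 4 of 13. Some of these values rest on few UMIs: in Macrophage 6 HDM had 1 UMI, or 0.752% (0.019 to 4.26), against 0.717% in control. Each of the 11 was highest in HDM over all cells; Rps12-ps3, for example, came to 1.30, 4.97, 1.26 and 2.00% of Rps12 (control, HDM, APM, HDM+APM). Rps27l, whose sequence differs from Rps27, had its highest value in HDM in only 2 of 9 clusters. The HDM library was also the shallowest, at a median of 1380 UMIs per cell, and the part of depth in these values was not tested.

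**Figure D3:**
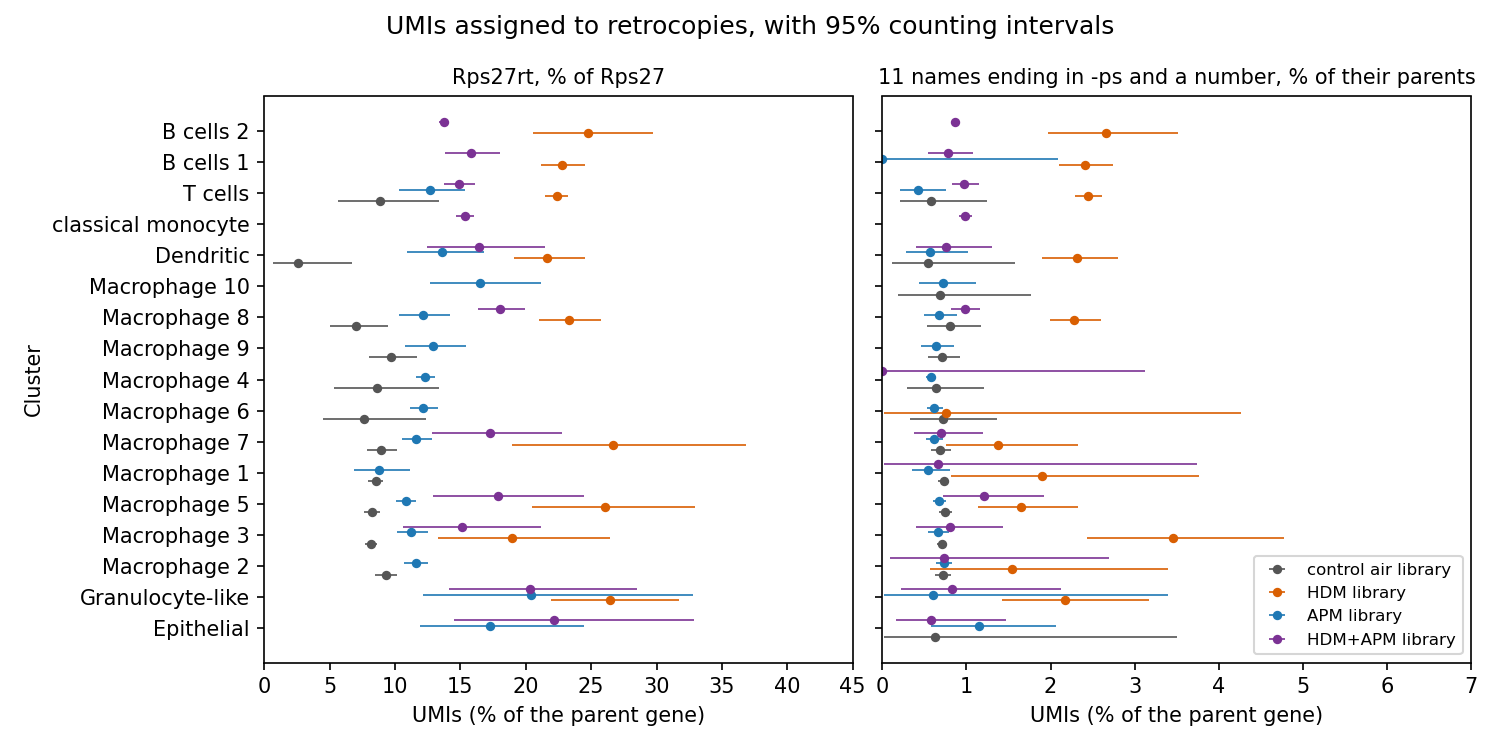
The x axes give UMIs assigned to Rps27rt (left) and to the 11 -ps names together (right) as a percentage of those of their parent genes; rows are clusters, colours are libraries and bars are 95% counting intervals, shown where the parents had at least 100 UMIs. The HDM points lie to the right of the other libraries, at a median of 23.3% for Rps27rt against 8.51% in control.

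The effect of the dust alone was read where both libraries held at least 50 cells: in the sum of Macrophages 1 to 7, 9 and 10 and in 7 single clusters. In that sum the core level was 14.8% in control (3776 cells) and 16.2% in APM (3501 cells), a ratio of 1.09 (1.09 to 1.10). Giving every cluster the same weight in both libraries lowered the ratio to 1.03. Within clusters it was 0.996 in Macrophage 1, 1.06 in Macrophage 2, 1.05 in Macrophage 3, 1.07 in Macrophages 5 and 7, 1.04 in Macrophage 8 and 1.02 in Macrophage 9. In Macrophage 8 it was 0.993 with only cells of at least 1000 UMIs and 1.00 with the median ratio of all other genes set to 1. No core member reached 1.5-fold in either direction in the sum, where 3.14% of the 9016 genes with at least 100 UMIs were higher and 2.98% lower by that much. At a lower limit of 25% higher or 20% lower, 7 members were higher and 0 lower, where 12.8% of genes were higher and 12.8% lower. The difference in the ribosomal sum was thus small against the range between cell types.

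Of the core members, 20 had a ratio above 1 in all 7 clusters and 7 below 1 in all 7. Of the 568 genes with at least 100 UMIs in all 7 clusters, 17.3% were above in every cluster and 13.4% below, and the 7 clusters share their 2 libraries. Rpl35, which sits at the exit of the peptide tunnel, was at 2413, 2142.5, 2299, 2311, 2289, 2269 and 3032 CPM in control (Macrophages 1, 2, 3, 5, 7, 8 and 9) and at 2849, 2929, 3378, 3197, 3305, 3237 and 4181 CPM in APM. Only Macrophage 9 of the control library came within the APM range, and each ratio lay between 1.18 and 1.47. In Macrophage 8 Rpl35 was also above control in HDM, without dust, at a ratio of 1.41 (1.251 to 1.58). Its HDM+APM to APM ratio there was 0.915 (0.845 to 0.992). A level above control was thus not particular to dust in that cluster. Rpl3 (1.06 to 1.43), Rpl15 (1.02 to 1.54), Rps18 (1.05 to 1.27) and Rpl23a (1.11 to 1.22) were next by median ratio among the 20.

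The members below 1 in all 7 were Rps21, Rplp1, Rps26, Rps20, Rpl7a, Rps24 and Rpl38. Rps21, a small 40S protein, stood at 1582, 1573, 1373, 1444, 1366, 1354 and 1440.5 CPM in control and at 1354, 1342, 1057, 1144, 1032, 1310.4 and 1041 CPM in APM, with ratios from 0.72 to 0.97. Rplp1 ranged from 0.77 to 0.93. The stalk members together had ratios of 0.89 to 0.95 in the 7 clusters, where the 60S members had 1.01 to 1.09. The stalk members did not move together: Rplp0 was above 1 in 5 of the 7 clusters (median ratio 1.05) and Rplp2 in 1. In Macrophage 8 alone 1 core member, at the limit of 25% higher or 20% lower, was higher and 0 were lower, where 19.1% and 10.9% of 645 genes were.

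**Figure D4:**
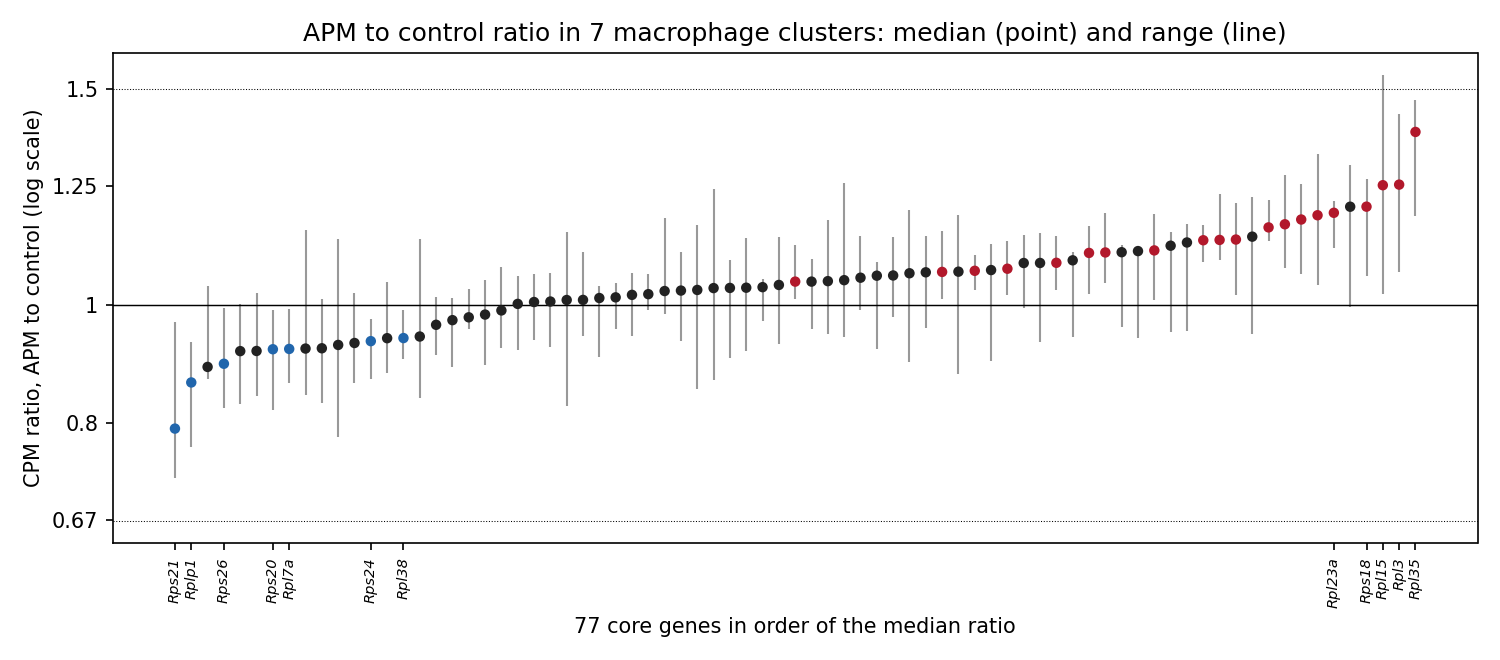
Each core member is a column in order of its median APM to control CPM ratio over 7 macrophage clusters (y axis, log scale), with a line for the range; red points are above 1 in all 7 clusters, blue points below 1 in all 7, and dotted lines mark 1.5-fold; only genes named in the text are labelled. Rpl35 stands at the right end, from 1.18 to 1.47, and Rps21 at the left, from 0.72 to 0.97.

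Mite allergen was read mainly in Macrophage 8, the cluster with 110 to 214 cells in every library. Its core share was 17.03% in control, 18.3% in HDM, 17.6% in APM and 20.6% in HDM+APM. The HDM to control ratio was 1.07 (1.06 to 1.09), but with only cells of at least 1000 UMIs it was 0.995, and with the median ratio of all other genes set to 1 it was 0.953. The direction of the sum in that comparison thus changed with the processing. Epithelial markers stood at 16183, 470.3, 5018 and 1984 CPM in Macrophage 8 of control, HDM, APM and HDM+APM, and red blood cell markers at 375, 6195, 19541 and 42.3 CPM. Without the 23 cells whose 2 deposited labels conflict the ratio was 1.11, and the part of other admixed RNA was not tested.

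Inside that nearly level sum, members differed in direction, but they passed each limit less often than genes in general. Between HDM and control 3 core members were higher by at least 1.5-fold, where 24.7% of the 866 genes tested were, and 4 were lower, where 11.7% were. At the limit of 25% higher or 20% lower, 13 were higher and 10 lower, where 39.6% and 20.4% of genes were. Rpl41 was at 7202 CPM in control, 11546 in HDM, 8541 in APM and 10608 in HDM+APM, higher in both allergen libraries than in both others. Rps12, a 40S protein of the beak, stood at 1309, 2055, 1507 and 2006 CPM in the same order, and its HDM to control ratio was 1.57 (1.349 to 1.83). Rpl30 had the same ratio, 1.57 (1.27 to 1.96).

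The 4 lower members were lowest in the HDM library. They were picked by their HDM to control ratio, so only their place against APM and HDM+APM adds to that. Rpl3 was at 1443 CPM in control, 779 in HDM, 1535 in APM and 1132 in HDM+APM, with an HDM to control ratio of 0.540 (0.456 to 0.641). Rplp0 was at 2403, 1535, 2406 and 2322 CPM. Rpl4, a 60S protein lining the exit tunnel, was at 1093, 684 and 1089 CPM in the first 3 libraries and at 1057 CPM in HDM+APM. Rpl14 was at 2079, 1226, 1808 and 1851 CPM. For Rpl4 and Rplp0 the 3 other libraries lay within each other's counting intervals. As a mean over cells 11 core members were higher and 0 lower by 1.5-fold, and with only cells of at least 1000 UMIs 1 was higher and 8 were lower.

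T cells, which had at least 50 cells in HDM (493), APM (52) and HDM+APM (136), also had their lowest values of Rpl3, Rplp0 and Rpl4 in HDM. Rpl14 is not given for T cells here. Rpl3 was at 2225 CPM in HDM, 3867 in APM and 3567 in HDM+APM, and at 4301 CPM in the 13 control T cells. Rplp0 was at 4340.5, 5321 and 6498 CPM and Rpl4 at 2049, 3019.9 and 3041 CPM in HDM, APM and HDM+APM. The core share was 39.7% in HDM and 40.3% in HDM+APM, a ratio of 1.02 (1.01 to 1.02), with 1 member, Rpl3, higher by at least 1.5-fold, where 5.03% of 1152 genes were, and 0 lower, where 8.94% were. At the limit of 25% higher or 20% lower, 6 were higher and 2 lower, where 19.4% and 19.9% of genes were. With only cells of at least 1000 UMIs the ratio of the sum was 0.996. Rps12, at 3400.3 CPM in HDM and 2620.5 CPM in HDM+APM, had the lowest ratio, 0.771 (0.71 to 0.836).

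The members' ratios were set against coding length. In Macrophage 8 between HDM and control, the log2 ratio relative to the sum was negative for 20 of 22 core members with at least 600 coding bases (median -0.26) and positive for 9 of 9 with under 300 (median 0.25). Pearson's r with coding length was -0.67 over the 77 members. In T cells between HDM+APM and HDM, 3 of the 22 long members were below the sum (median 0.21), 0 of the 9 short ones were above it (median -0.15), and r was 0.69. Both comparisons contain the HDM library. Of the 2 comparisons in Macrophage 8 without it, r was -0.46 between HDM+APM and APM and -0.14 between APM and control. In T cells between HDM+APM and APM r was -0.35, with 8 of 9 short members above the sum, a sign opposite to that against HDM. Between HDM and control in Macrophages 1 to 7, 9 and 10 r was -0.42, with 15 of 22 long members below the sum and 5 of 9 short ones above it. Over the other genes with at least 100 UMIs, r with coding length was 0.02 in the first comparison (758 genes) and -0.16 in the second (1019 genes). The correlations run across genes of the same libraries, which share depth, and the length limits were chosen after the data were seen.

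**Figure D5:**
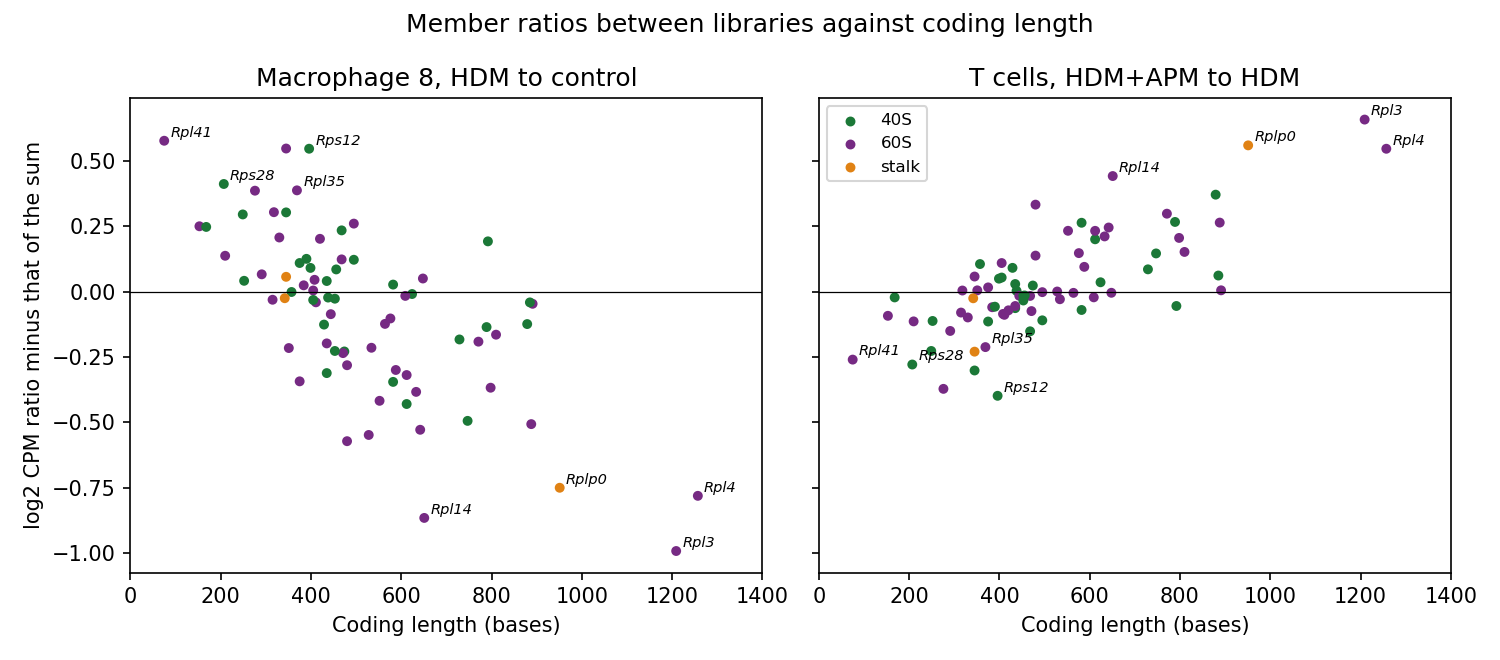
The x axis is coding length in bases and the y axis the log2 CPM ratio of a core member minus that of the core sum, in Macrophage 8 between HDM and control (left) and in T cells between HDM+APM and HDM (right); colours are subunits. Long members such as Rpl3, Rpl4 and Rplp0 lie low on the left and high on the right, with r of -0.67 and 0.69.

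The combined exposure set against allergen alone, a comparison that shares the HDM library with the one above, gave 4 higher members in Macrophage 8 (Rpl4, Rplp0, Rpl14 and Rpl10) and none lower, where 5.06% and 7.48% of 1323 genes were. At the limit of 25% higher or 20% lower, 26 were higher and 0 lower, where 16.4% and 21% of genes were. Set against dust alone, Macrophage 8 had a core ratio of 1.17 (1.16 to 1.18), and Rps26 passed 1.5-fold with a ratio of 1.53 (1.39 to 1.69), where 15% of 1126 genes were higher and 11.9% lower. At the lower limit 23 were higher and 1 lower, where 27.8% and 23.8% of genes were. T cells had a larger difference in that comparison, at 1.29 (1.27 to 1.31). There 21 of 77 core members were higher by at least 1.5-fold and none lower, where 13.4% and 18.5% of the 389 genes tested were. At the lower limit 45 were higher and 0 lower, where 32.1% and 28% of genes were. Rpl22 (991 and 1859 CPM in APM and HDM+APM), Rpsa (1933 and 3567 CPM) and Rps12 (1454 and 2620.5 CPM) had the highest ratios, and Rpl3 the lowest, at 0.922 (0.801 to 1.07). The APM T cells were 52 cells at a median of 1129.5 UMIs, and red blood cell markers stood at 9172 CPM in them against 71.7 CPM in HDM+APM. The part of that admixture was not tested.

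In the sum of Macrophages 1 to 7, 9 and 10 the HDM library had only 60 cells. Its core ratio to control was 1.10 (1.09 to 1.11), and no member reached 1.5-fold in either direction, where 19.1% and 18% of 8035 genes did. At the lower limit of 25% higher or 20% lower, 7 members were higher and 3 lower, where 32.9% and 27.6% of genes were. The 3 lowest were Rpl14 at 0.733, Rpl3 at 0.741 and Rpl29 at 0.779, and the highest was Rpl41 at 1.32.

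Other translation genes were listed apart from the members. Of 2974 genes with at least 100 CPM in a cluster, the pattern over the 17 clusters was most like that of the core sum for Eef1b2, a subunit of the elongation factor exchange complex (Pearson r 0.98 on log2 CPM), followed by Gm2000, Eif3h, Eef2, Gm11808 and Eef1a1 (0.95). Eef1b2 stood at 314 CPM in Macrophage 1 and 1112 CPM in B cells 2. The least like were Elovl1 (r -0.87), Mkrn1, Gsto1, Dcaf12, Mgst1 and Sftpc. Among the screened genes of each list the median r was 0.86 for 26 translation factors, 0.50 for 10 ribosome biogenesis genes and -0.10 for 6 regulators of translation. It was -0.01 over all 2974.

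The 38 biogenesis genes summed to 2713 CPM in Macrophage 10, 2522 in B cells 1, 2502 in Macrophage 9, 2496 in B cells 2 and 2372 in T cells, and to 1958 to 2349.7 CPM in Macrophages 1 to 8. Of the 38, 9 were highest in Macrophage 10 and 8 in Macrophage 9, 2 of the smallest macrophage clusters. Another 6 were highest in B cells 1, 5 in the shallow granulocyte-like cells, 4 in B cells 2 and 1 in T cells. How often other genes were highest in these clusters is not given here, so the counts cannot be read as a trait of Macrophages 9 and 10. Gnl3, a nucleolar GTP-binding protein, ran from 4.41 CPM in epithelial-labelled cells to 135 CPM in Macrophage 9. Of the regulators, Larp1 was highest in Macrophage 8, at 107 CPM, and Myc in B cells 2, at 89.2 CPM. Fau, whose product is cut into a ribosomal protein and a ubiquitin-like part, ran from 768 CPM in epithelial-labelled cells to 8594 CPM in B cells 1. Within Macrophage 8, between HDM and control, 2 of 21 tested translation factors were higher and 5 lower by at least 1.5-fold, where 24.7% and 11.7% of 866 genes were. Between APM and control 0 of 21 were either, where 5.27% and 2.48% of 645 genes were.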

How the data were processed

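The authors deposited raw UMI counts per gene and cell as a single matrix with a table of each cell's library and cluster, and those counts were used as deposited. Cell Ranger 2.2.0, Seurat 2.3.4 and the build mm10 are named in the submitters' processing notes, without their roles. No doublets were removed here, and the labels do not say whether the authors removed any. All 9925 cells and 13838 genes were kept. Counts were summed per cluster and library, and CPM, shares and ratios were computed with exact 95% Poisson, Clopper-Pearson and conditional binomial intervals (Python 3.11.15, numpy 2.4.6, scipy 1.17.1). The ratio intervals were tested on simulated Poisson counts, which hold no spread between cells or pools, so that test does not cover such spread. Comparisons needed 50 cells in both libraries and 100 UMIs per gene, and a difference was counted at 1.5-fold. UMIs of 1 cell are not independent replicates, and no test was made. Named were the members set apart, the 4 with most UMIs, the 8 with the largest SD of share (1 of them is not reported here), the 3 highest and lowest ratios per comparison, Rpsa, Rplp0, Rplp1, Rplp2, Rps6, Rps27a and up to 4 genes of each other list; members past 1.5-fold or on 1 side of 1 in all clusters, and genes shown for a similar pattern or as markers, were named as well, some after their values were seen. Members and lists were chosen with earlier results of these data known. Coding lengths are from GENCODE vM21.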

Additional observations from a re-analysis of the deposited data

Results flagged for a closer look

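In Macrophage 8, 4 core members had HDM to control and HDM+APM to APM ratios on opposite sides of 1, with both counting intervals excluding 1. That is 5.19% of the 77 core members, where 22 of the 843 genes tested in both comparisons, or 2.61%, met the same rule. The difference between the ratios was not tested, since each library is 1 pool. Rpl35 had a ratio of 1.41 (1.251 to 1.58) without dust and 0.915 (0.845 to 0.992) with dust, a ratio of ratios of 0.651. Rpl13 had 0.824 and 1.10, a ratio of ratios of 1.33. Rpl29 had 0.723 and 1.21, a ratio of ratios of 1.68. Rps7 had 0.846 and 1.17, a ratio of ratios of 1.39.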

How the results depend on the processing

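No paired analysis was possible because each group is 1 library from a single pool of mice, which leaves no replicates to pair. The lowest lymphocyte cluster stood 1.89-fold over the highest macrophage cluster by the median over cells, and the order of the first 5 clusters did not move under any of the 4 alternatives run for it, while Macrophage 8 moved from place 7 to 13 by that median. The SDs of share of the 7 named members moved by less than 1.5 times with cells of at least 1000 UMIs, and the counts at 1.5-fold did so with at least 20 UMIs per gene. With cells of at least 1000 UMIs, the summed ratio fell below 1 in Macrophage 8 for HDM to control (0.995, with 1 member higher and 8 lower) and for APM to control (0.993), and in T cells for HDM+APM to HDM (0.996), and was 1.14 in Macrophage 8 for HDM+APM to APM. T cells of HDM+APM and APM were not compared at that depth, which left too few cells. Without mitochondrial and haemoglobin UMIs the ratio was 1.11 (HDM to control, Macrophages 1 to 7, 9 and 10), 1.09 (HDM to control, Macrophage 8), 1.05 (APM to control, Macrophage 8) and 1.01 (HDM+APM to HDM, T cells). As a mean over cells it was 1.09 for APM to control and 1.06 for HDM to control in Macrophages 1 to 7, 9 and 10. In Macrophage 8 that mean was 1.28 for HDM to control (11 higher, 0 lower), 1.13 for APM to control (1 higher) and 1.27 for HDM+APM to APM (8 higher), with 2 higher for HDM+APM to HDM. In T cells it was 1.03 for HDM+APM to HDM (2 higher) and 1.2504 for HDM+APM to APM. With the median ratio of other genes set to 1, the ratio was 1.09 (APM to control) and 1.06 (HDM to control) in Macrophages 1 to 7, 9 and 10. In Macrophage 8 it was 0.953 for HDM to control (0 higher, 7 lower), 1.00 for APM to control, 1.16 for HDM+APM to HDM and 1.16 for HDM+APM to APM, and in T cells 1.39 for HDM+APM to APM. Equal cluster shares gave 1.03 for APM to control and 1.07 for HDM to control. Without cells of conflicting type, an alternative chosen after seeing the data, Macrophage 8 gave 1.11 for HDM to control (2 lower) and 1.22 for HDM+APM to APM (3 higher). At a limit of 25% higher or 20% lower, Macrophages 1 to 7, 9 and 10 had 7 higher for APM to control and 7 higher and 3 lower for HDM to control. Macrophage 8 had 13 higher and 10 lower for HDM to control, 1 higher for APM to control, 26 higher for HDM+APM to HDM, and 23 higher and 1 lower for HDM+APM to APM. T cells had 6 higher and 2 lower for HDM+APM to HDM and 45 higher for HDM+APM to APM. The cause of these shifts was not tested.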
